A study of Capra hircus with 6 samples.

Results

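The miR-2284 and miR-2285 families are microRNAs registered mainly from cattle, and they were followed here in the back muscle (longissimus dorsi) of Haimen goats. The members were selected on detection and on their name: all names in the authors' catalogue of expressed miRNAs that contain miR-2284 or miR-2285, whatever the letter, arm or variant suffix. This gave 44 of 1120 distinct names, 12 of miR-2284 and 32 of miR-2285. The number of names is thus a property of the choice and was not tested.

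Small RNA libraries came from 3 lambs' muscle samples at 1 day of age and 3 fetal samples at day 75 of pregnancy, all of the same goat breed, and were sized on a gel before Illumina sequencing. Whether the libraries of a stage are from different animals is not stated, so the spread behind each p-value may be technical. The lamb libraries held 6096009 to 9471852 reads on listed miRNAs, and the fetal libraries held 8506742 to 13756954. All 7 skeletal muscle markers on the list used (among them miR-1, miR-133a and miR-206) were listed, with summed levels of 245920 to 341081 in lambs and 65102 to 77819 in fetuses, in reads scaled by library size with edgeR's TMM factors (CPM). Of their 14 tested names, 8 were higher and 1 was lower in lambs (edgeR's quasi-likelihood test, adjusted p under 0.05). All 4 stromal and smooth muscle markers were listed, with 3 of 10 tested names higher and 4 lower in lambs, and their sum was 19847 to 29996 CPM in lambs and 37506 to 46009 in fetuses. The 6 blood cell markers were also all listed and summed to 663 to 1214 CPM in lambs and 331 to 436 in fetuses, with 1 of 8 tested names higher, chi-miR-150, and 2 lower in lambs. The names of the endothelial marker miR-126 summed to 3429 to 3565 CPM in lambs and 1684 to 2208 in fetuses, with 2 of 3 tested names higher in lambs. Of the epithelial markers 4 of 6 were listed, without miR-141 and miR-429, and summed to 11 to 15 CPM in lambs and 2 to 70 in fetuses, with none of 4 tested names called. Of the neuronal markers 2 of 3 were listed, without miR-137, and summed to 7 to 9 CPM in lambs and 11 to 22 in fetuses, with the 1 tested name lower in lambs. The part of these differences in the results that follow was not tested.

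A miRNA is cut as a duplex from the stem of an RNA hairpin, so that each hairpin can give a product from its 5′ arm and another from its 3′ arm. The seed, bases 2 to 8 of the mature strand, is the main determinant of which messenger RNAs it binds, and a shift of the 5′ end by a single base gives another seed. In ruminants the miR-2284 and miR-2285 genes are numerous and much alike, so the registry's letters run far into the alphabet and a short read can match several genes.

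The reads that carried most of the signal, and those that show how the names relate, are given 5′ to 3′ as listed by the authors in DNA letters, with the seed in capitals. The first 3 held the most reads.
bta-miR-2284x_R+1: tGAAAAGTtcgttcgggttttt
bta-miR-2285l_R-1: aAAACCCGcatgaactttttgg
bta-miR-2285bm_1ss14GA: aAAAAACCgagtgaactttttg
bta-mir-2284aa-3-p3_1: aAAATCCGaacgaactttttgg
bta-mir-2284z-2-p3_1ss22GT: aAAAACCCagatgaactttttt
bta-miR-2284y: aAAAGTTCgttcgggtttttc
bta-miR-2285bd_L+2R+1_1ss10GC: aAAAACCCtcatgaactttttgg
bta-miR-2285n: aAAAACCCgaatgaacttttgg
bta-mir-2285bm-p5: aAAAGTTCattagggtttttct
In these names bta is the registry's prefix for cattle. By common usage, which the files do not explain, L and R stand for bases added or missing at the 5′ end and at the 3′ end, and ss stands for a substitution with its position.

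The listed reads fell into 2 sequence types. One holds GGTTTT (12 names) and the other holds AACTTT or AACCTTT (31 names). The motifs were read off the members' own sequences and searched on the listed strand, where the 2 types shared no read, and of the 1075 other names 4 (0.372%) were of the first type and 18 (1.67%) of the second. The remaining member, bta-mir-2285ah-p3_1ss23GT, held neither and had 5 reads in 1 fetal library. All 5 names with the suffix p5 were of the GGTTTT type, and 7 of 8 with the suffix p3 were of the AACTTT type.

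The names that refer to a registered mature sequence and the new arms, which have no registry entry, differed in type. All 6 miR-2284 names with a registered sequence were of the GGTTTT type, while 24 of 25 such miR-2285 names were of the AACTTT type, the exception being bta-miR-2285aj-5p_L-1R+1_1ss22TC. Of the new arms, 5 of 6 for miR-2284 were of the AACTTT type and 4 of 7 for miR-2285 were of the GGTTTT type. In reads, the GGTTTT type made up 92.2% of miR-2284 and 2.64% of miR-2285. Laid antiparallel without gaps, bta-miR-2284x_R+1 and bta-miR-2285l_R-1 faced each other over 21 bases with 17 Watson-Crick pairs, 3 G-U pairs and 1 mismatch. The reads bta-mir-2285bm-p5 and bta-miR-2285bm_1ss14GA faced each other over 20 bases with 17 Watson-Crick pairs, 1 G-U pair and 2 mismatches. This pairing is a property of the letters and does not show that 2 reads came from the same hairpin.

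All 44 names carried the cattle prefix and none the goat prefix. RefSeq, for the goat assembly ARS1.2, names 5 genes MIR2284A to MIR2284E and no MIR2285 gene among its 264 miRNA genes. The miR-2284 names used 5 letters (x, y, z, aa and ab), with 4 names on aa, 3 on x and 3 on y. The miR-2285 names used 24 letters, and 19 of these had a single name. The most names fell on miR-2285f with 4 and miR-2285n with 3.

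Few members had exactly the registered sequence. Of the miR-2284 names 1 of 12 (8.33%, 95% exact interval 0.211 to 38.5%) and of the miR-2285 names 2 of 32 (6.25%, 0.766 to 20.8%) were identical with their entry, against 41 of 174 (23.6%, 17.5 to 30.6%) of the other cattle-prefixed names. Among the other names numbered miR-2281 to miR-2490, the registry's number block around the families, 5 of 21 (23.8%) were identical with their entry and 5 of 21 had a substitution. The 3 identical members were bta-miR-2284y, bta-miR-2285n and bta-miR-2285f. The intervals cover counting error only, and names that share hairpins and reads are not independent. New arms, which have no entry to be identical with, made up 6 of 12 miR-2284 names and 7 of 32 miR-2285 names. Among the other cattle-prefixed names they were 18 of 174. Without new arms, the identical share was 16.7% for miR-2284 and 8.0% for miR-2285, and the other cattle-prefixed names were 41 identical and 115 differing. In reads, identical names held 0.88% of miR-2284 and 0.954% of miR-2285, and names that differ from their entry held 91.2% and 95.9%.

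Substitutions were given for 4 of 12 miR-2284 names (33.3%, 95% exact interval 9.92 to 65.1%) and for 25 of 32 miR-2285 names (78.1%, 60.0 to 90.7%). Among the other cattle-prefixed names the share was 46 of 174 (26.4%). Leaving out new arms, for which the reference of a suffix is not stated, it was 1 of 6 for miR-2284 and 20 of 25 for miR-2285. Each of these names had exactly 1 substitution. When positions were counted from the outermost 5′ base of entry or read, the read held the named base in 29 of 29 names, so each could be placed on the read itself.

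Counted from 1 at the 5′ end of the read, the seed carried 7 of the 25 miR-2285 substitutions and none of the 4 of miR-2284. The first base carried 1 in each family, and positions after the seed carried 17 in miR-2285 and 3 in miR-2284. The 7 names with a seed substitution rested on 5 read sequences, and 4 of these names shared their read with other names. The read aAAACCGGaatgaactttttgt was listed both as miR-2285cj with T6C and as miR-2285bn with T7G. The read aAACCCGAatgaactttttg was listed under 5 names, as miR-2285ad with A7G, miR-2285f with T6C, miR-2285cz with T14C, miR-2285bq with C17T and miR-2285n with G19T, each credited with 0.357 reads in lamb replicate 2 alone. Names with a seed substitution held 0.945% of the miR-2285 reads, those with a substitution after the seed 45.3%, of which the most abundant was bta-miR-2285bm_1ss14GA with G14A, and those with none 53.6%. Transitions made up 18 and transversions 11 of the 29 substitutions, and T to C was the most frequent change with 10. These are counts of names, and they include the 2 names and the 5 names that were listed on the same read.

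**Figure D1:**
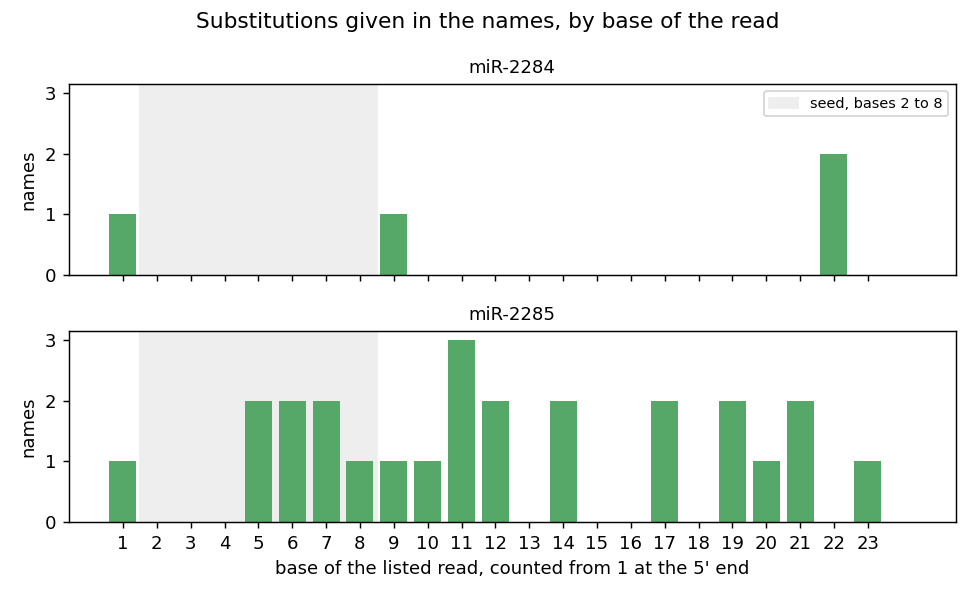
Number of names (y axis) with a substitution at each base of the listed read (x axis, counted from the 5′ end), for miR-2284 above and miR-2285 below, with the seed shaded. The 7 seed substitutions all belong to miR-2285 and lie at bases 5 to 8, and the 4 of miR-2284 lie at bases 1, 9 and 22.

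End changes were also counted by family. In miR-2284, 4 of 12 names were longer at the 3′ end and none was shorter, while 2 were shorter at the 5′ end. In miR-2285, 3 of 32 were longer and 9 shorter at the 3′ end, and 5 were longer and 7 shorter at the 5′ end. An end change and a substitution occurred together in 12 miR-2285 names and in no miR-2284 name. No new arm carried an end change, so these counts depend on the share of new arms. Of the names other than new arms, 1 of 6 in miR-2284 and 20 of 25 in miR-2285 had a substitution and could carry both. Reads of both families were 20 to 23 nt long with a median of 22.

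The 44 names held 21 different seeds, 6 in miR-2284 and 18 in miR-2285, of which 3 occurred in both. Most reads sat on few of them. The seed GAAAAGT, found in bta-miR-2284x_R+1 alone, held 4437 reads or 59.0% of both families. AAACCCG of bta-miR-2285l_R-1 and 2 other miR-2285 names held 17.8%, and AAAAACC of bta-miR-2285bm_1ss14GA held 12.4%. The seeds AAAAGTT and AAAGTTC are those that bta-miR-2284x_R+1 would have if it started 1 or 2 bases further in, and they held 0.971% and 0.898% of the reads, each with names of both families. Among the other names of the catalogue none had the seed GAAAAGT or the seed AAAAGTT. The seed AAAAACC was found in 2 of them, AAACCCG in 1 and AAAGTTC in 1.

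Near-identical names limit how well reads can be assigned. The 44 names had 39 distinct sequences, and 36 distinct sets of counts. Equal counts do not always mean a shared read. The unlike reads bta-miR-2285dd_1ss21TG and bta-mir-2285ah-p3_1ss23GT each had 5 reads in fetus replicate 1 alone. Counts that are fractions, as when a read is divided over several names, occurred in 24 of 44 members (54.5%) and in 279 of 1075 other names (26.0%). The reads bta-mir-2284aa-3-p3_1 and bta-mir-2284aa-3-p3_2, which differ by a final T, had the same counts in every library, as had bta-miR-2284x_L-1R+2_1 and bta-miR-2284x_L-1R+2_2. The read named bta-mir-2284y-1-p5 and classed as a new arm was bta-miR-2284y without its last base. Levels of single members are therefore uncertain by the share of reads their neighbours received.

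Both families were scarce. Together they held 0.0132% of all listed reads, with 4943 reads of miR-2284 and 2574 of miR-2285 over the 6 libraries. The 12 members of highest mean held 96.7% of them. The other 32 had 0.357 to 21.0 reads each, with a median of 6.10, and 17 of them were seen in a single library. Of these 32, 12 had reads in lambs only, 11 in fetuses only and 9 at both stages. Of the 12, 6 were seen in lamb replicate 2 alone, 5 of them being the names that share a read, so that 6 remained without that library. These counts are a description, because the share of stage-only names among other miRNAs with as few reads was not determined. The number of members with any read was 19, 22 and 15 in lambs and 27, 23 and 14 in fetuses, so the stages overlapped.

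Of the miR-2284 members, the GGTTTT-type read bta-miR-2284x_R+1, longer than its cattle entry by 1 base, was the most abundant. It had 683, 301.5 and 871 reads in lambs, against 1158, 831 and 592.5 in fetuses. Scaled to library size this was 79.6 ± 23.5 CPM in lambs and 72.3 ± 9.63 in fetuses (SD, n = 3 each), and the groups overlapped. The log2 fold change, lamb over fetus, was 0.14 ± 0.28 (SE) and did not pass the test (edgeR's quasi-likelihood test, adjusted p = 0.697). Its sign depended on the scaling, with -0.15 when libraries were scaled by their totals and 0.42 with the authors' factors.

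The AACTTT-type reads of miR-2284 were less abundant by more than an order of magnitude. The read bta-mir-2284z-2-p3_1ss22GT had 0, 0 and 16 reads in lambs, against 61, 32 and 25 in fetuses. All its lamb reads came from replicate 3. The log2 fold change of -2.29 ± 1.25 (SE) missed the threshold (edgeR adjusted p = 0.186), and without lamb replicate 3, which leaves both lamb libraries at 0, the adjusted p was 0.00585. Over the 13 alternatives its adjusted p was 0.00585 to 0.377.

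The reads bta-mir-2284aa-3-p3_1 and bta-mir-2284aa-3-p3_2 each had 23.5, 8.5 and 5 reads in lambs, against 46.5, 13 and 9.5 in fetuses. Replicate 1 was the highest at each stage. Their log2 fold change was -0.12 ± 0.75 (SE, edgeR adjusted p = 0.91) and changed sign with the scaling (0.14 with the authors' factors). The variant bta-mir-2284aa-3-p3_1ss1AG, whose first base is G, had 5, 5.5 and 2.5 reads in lambs, against 15.5, 6 and 4.5 in fetuses, with a log2 fold change of -0.16 ± 0.79 (SE, edgeR adjusted p = 0.888) that was 0.11 with the authors' factors.

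The GGTTTT-type read bta-miR-2284y, identical with its cattle entry, had 3, 2.5 and 4 reads in lambs, against 19.5, 7 and 7.5 in fetuses. In CPM every lamb library was below every fetal one, with 0.426 ± 0.0482 in lambs and 0.917 ± 0.365 in fetuses (SD, n = 3 each). The log2 fold change of -1.23 ± 0.64 (SE) did not pass the test over all miRNAs (edgeR adjusted p = 0.171).

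Of the miR-2285 members, bta-miR-2285l_R-1, an AACTTT-type read shorter than its entry by 1 base, fell in lambs. It had 57, 56.4 and 64 reads in lambs, against 439.5, 465.5 and 236.5 in fetuses. The groups were far apart, with 8.17 ± 1.67 CPM in lambs and 32.4 ± 9.43 in fetuses (SD, n = 3 each). The log2 fold change was -2.00 ± 0.32 (SE; edgeR's quasi-likelihood test, adjusted p = 0.00363). It stayed past the threshold under all 13 alternatives run, with log2 fold changes of -2.29 to -1.72 and adjusted p of 2.342e-06 to 0.0184. In bulk tissue, fewer cells of a type and less RNA per cell cannot be told apart.

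The second miR-2285 member in abundance, bta-miR-2285bm_1ss14GA, had 78, 85 and 78 reads in lambs, against 346, 163 and 179 in fetuses. This was 11.3 ± 3.42 CPM in lambs and 19.1 ± 4.34 in fetuses (SD, n = 3 each), and the highest lamb library, replicate 2, overlapped the lowest fetal one. The log2 fold change of -0.76 ± 0.33 (SE) missed the threshold (edgeR adjusted p = 0.113). It passed without lamb replicate 2 (adjusted p = 0.0419) and with scaling by library totals (adjusted p = 0.0382), and its adjusted p was 0.0382 to 0.302 over the 13 alternatives.

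The read bta-miR-2285bd_L+2R+1_1ss10GC was seen only in the fetal libraries, with 14.5, 13.5 and 6.5 reads, against 0 in each lamb library. Set against 3 reads over the lamb group, the read was 7.31-fold lower in lambs, which allows only for counting error in the lamb group. It passed the count minimum (a mean of 5 over the 6 libraries) through its fetal reads alone, so the adjusted p of 0.019 by edgeR's quasi-likelihood test is given as a description. With no count minimum the adjusted p was 0.0485. Without fetus replicate 1 or fetus replicate 2 it fell under the count minimum and was not tested.

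The remaining miR-2285 members of the 12 overlapped between the stages. The read bta-miR-2285at_L+1_1ss17TC had 12, 9 and 0 reads in lambs, against 16, 6 and 10 in fetuses, with a log2 fold change of 0.17 ± 1.12 (SE, edgeR adjusted p = 0.914) that was -0.12 with scaling by library totals. The new arm bta-mir-2285o-3-p5_1ss12TC had 7, 0 and 8 reads in lambs, against 12, 8 and 8 in fetuses (log2 fold change -0.35 ± 0.95 SE, edgeR adjusted p = 0.781). The read bta-miR-2285ca_R-1_1ss9TC had 5 reads in lamb replicate 2 and 20 in fetus replicate 2, and none elsewhere, and was under the count minimum.

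The cattle-identical read bta-miR-2285n was singled out after its values were seen. It had 5.5, 3.36 and 9.5 reads in lambs and none in fetuses, the opposite of bta-miR-2285bd_L+2R+1_1ss10GC, with which it shares the seed AAAACCC. Set against 3 reads over the fetal group, the read was 9.63-fold higher in lambs, which allows only for counting error in the fetal group. It was under the count minimum, and with no minimum its adjusted p was 0.0521 (edgeR's quasi-likelihood test).

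**Figure D2:**
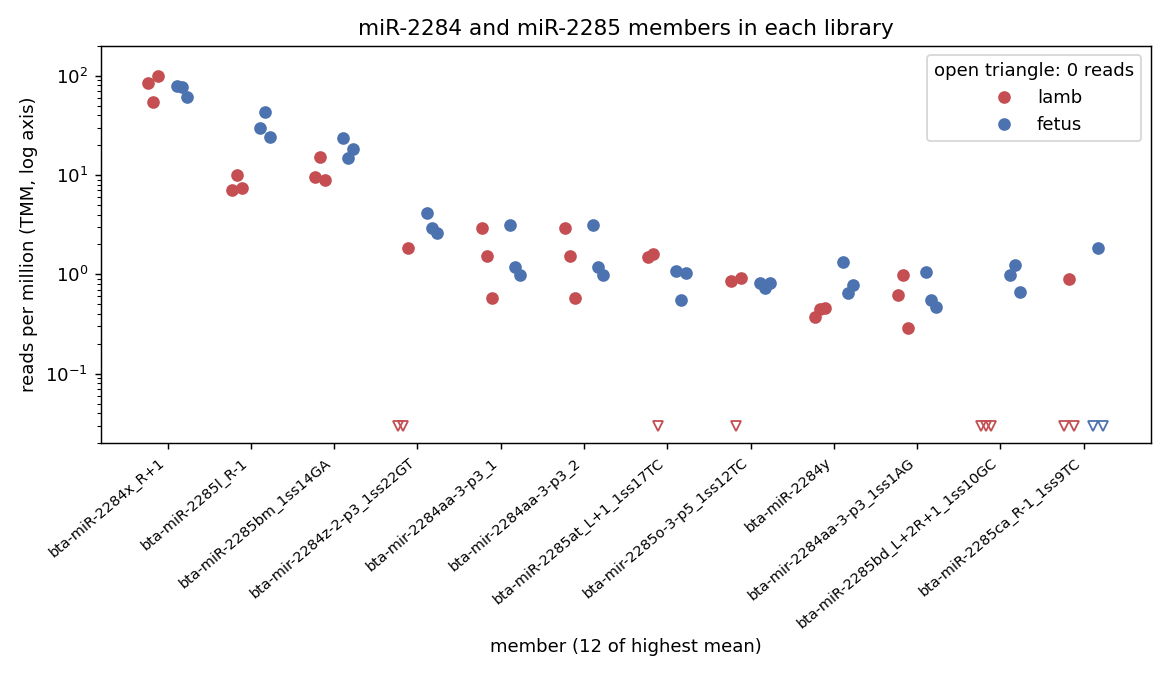
CPM in each library (y axis, log scale) for the 12 members of highest mean (x axis), with lambs left of fetuses and open triangles for libraries with 0 reads. The lamb libraries of bta-miR-2285l_R-1 lie below its fetal ones, those of bta-miR-2284x_R+1 overlap them, and bta-miR-2285bd_L+2R+1_1ss10GC has reads in fetuses alone.

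Read counts passed the minimum for 11 of the 44 members, 6 of miR-2284 and 5 of miR-2285, against 803 of 1075 other names. Of these 11, 2 were lower in lambs and none was higher (edgeR adjusted p under 0.05). The count is a description, because the minimum admitted bta-miR-2285bd_L+2R+1_1ss10GC through its fetal reads and left out the lamb-only bta-miR-2285n and bta-miR-2285f_L+1R-1_1ss12TG, which have fewer reads in all. Over all 814 tested miRNAs, 27% were lower in lambs, 13.1% were higher and 40.2% were called in either direction, while the share called among the 11 members was 18.2%. Without a minimum all 44 members were tested, of which bta-miR-2285l_R-1 and bta-miR-2285bd_L+2R+1_1ss10GC were lower in lambs and none was higher. Over all 1119 miRNAs tested this way, 16.9% were lower, 9.83% were higher and 26.7% were called in either direction. The median log2 fold change was -0.35 over the 11 members and -0.23 over all 814 miRNAs. The members' median was -0.08 with the authors' factors and -0.64 with library totals. When single libraries were left out, the count minimum was applied anew, so these medians cover 9 to 12 tested members. The median was lowest without lamb replicate 1 (-0.75). It was -0.63 without lamb replicate 2, -0.58 without lamb replicate 3 and -0.59 without fetus replicate 3. Leaving out fetus replicate 1 gave -0.34 and leaving out fetus replicate 2 gave -0.37, while DESeq2 gave -0.12. The overall median was 0.04 with the authors' factors and -0.52 with library totals, and the share of calls that were higher in lambs was 32.7%, 43.6% and 20.2% under the 3 scalings. Of the other names numbered miR-2281 to miR-2490, 12 of 21 were tested, of which 5 were lower and none was higher in lambs, with a median of -0.42.

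**Figure D3:**
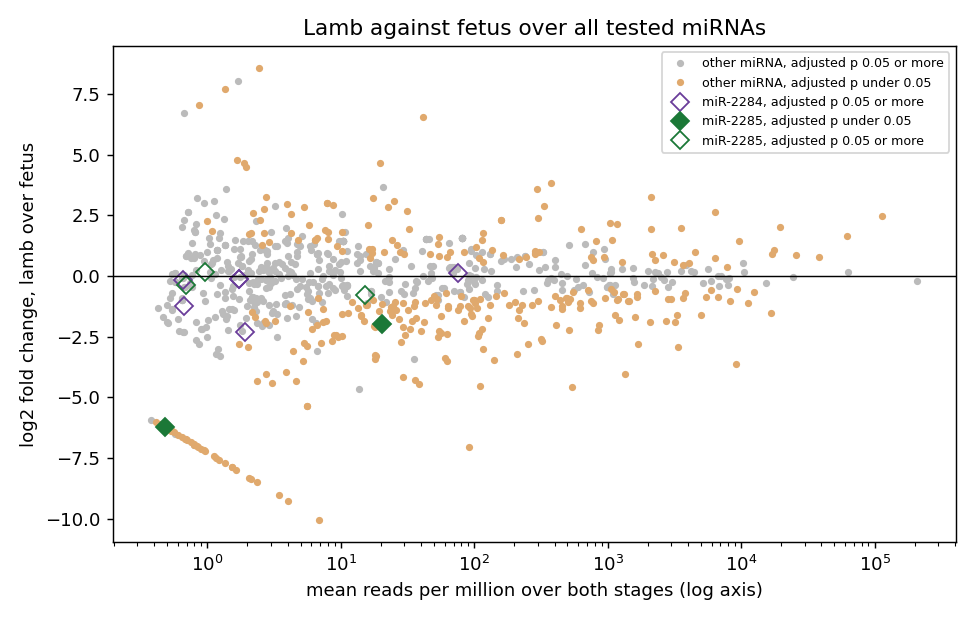
Log2 fold change, lamb over fetus (y axis), against mean CPM (x axis, log scale) for all 814 tested miRNAs, with the 11 tested members as diamonds. The 2 filled diamonds are bta-miR-2285l_R-1 at -2.00 and bta-miR-2285bd_L+2R+1_1ss10GC, which lies on the line of miRNAs with no reads in lambs, where the fitted value depends on the prior count.

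The levels of all names of a family were summed in each library. The sum of miR-2285 was 24.1, 29.9 and 21.0 CPM in lambs, against 59.9, 65.2 and 46.0 in fetuses. No lamb library reached the lowest fetal one, and the means were 24.96 ± 4.53 in lambs and 57.0 ± 9.90 in fetuses (SD, n = 3 each). The sum of miR-2284 was 94.1, 60.2 and 104.6 in lambs, against 93.5, 84.0 and 67.9 in fetuses, which overlapped, with means of 86.3 ± 23.2 in lambs and 81.8 ± 12.9 in fetuses (SD, n = 3 each), and the sign of this difference turned with library totals (-12.4 CPM, against 21.2 CPM with the authors' factors). The ratio of miR-2284 to miR-2285 reads within a library does not depend on the scaling. It was 3.91, 2.02 and 4.99 in lambs, against 1.56, 1.29 and 1.48 in fetuses, without overlap. Between the sequence types, the reads of the GGTTTT type per read of the AACTTT type were 3.10, 1.66 and 4.39 in lambs, against 1.19, 1.14 and 1.29 in fetuses. Sums over chosen members were not tested. They rest on few names: 89.8% of the miR-2284 reads were from bta-miR-2284x_R+1, and 87.3% of the miR-2285 reads from bta-miR-2285l_R-1 and bta-miR-2285bm_1ss14GA. Without bta-miR-2285l_R-1 the difference in miR-2285, lamb minus fetus, was -7.80 CPM in place of -32.1. The ratio of miR-2284 to miR-2285 reads also rested on that member, and without it the stages overlapped. Lamb replicate 2 then had 336.5 reads of miR-2284 to 110.57 of miR-2285, a lower ratio than the 1368 to 437.43 of fetus replicate 1.

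**Figure D4:**
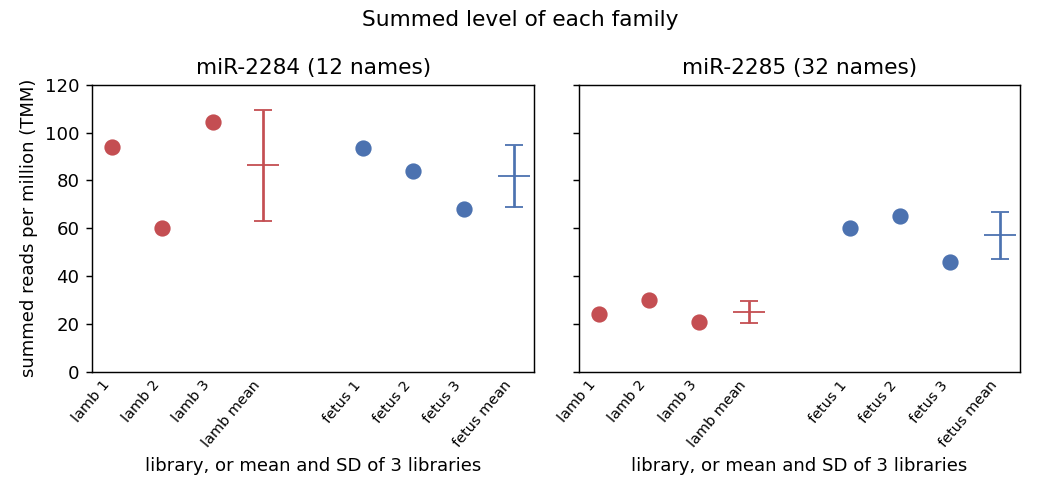
Summed CPM (y axis) of miR-2284 (left) and miR-2285 (right) in each library, lambs left of fetuses, with the mean and SD of each stage. The stages overlap for miR-2284, and all lamb libraries of miR-2285 lie below all fetal ones.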

How the data were processed

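The authors deposited a list of expressed miRNAs with their class against miRBase, and a table with a sequence and 2 kinds of value per miRNA and library. Per the file headers, these are raw values, which are estimated counts because 10.9 to 13.8% of them are fractions, and normalized values, a signal equal to the deposited count times 1 factor per library (0.568 to 1.81). How reads were divided and how the factors were set was not stated. The only build in the submitters' processing notes is that of another species, so no coordinates are given.

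Counts were rounded to whole numbers, filtered at a mean of 5 over the 6 libraries (814 of 1119 rows), scaled by TMM and tested by edgeR 4.0.16's quasi-likelihood test in R 4.3.3, lamb over fetus, with Benjamini-Hochberg adjustment over all 814 rows. SE is the log2 fold change divided by the square root of F. CPM use unrounded counts and TMM-scaled totals. In 1 simulated lamb against fetus comparison over 814 miRNAs, the test called 24 of 50 that were 4-fold higher and 23 of 50 that were 4-fold lower in lambs, 7 of 50 and 9 of 50 that were 2-fold higher and lower, and 3 of 614 unchanged ones. The changed miRNAs were drawn at random from all levels, so these shares need not hold for members with few reads. DESeq2 1.42.0, other filters and scalings, a replicate block and leaving out libraries were alternatives. Intervals on shares are exact (Clopper-Pearson, scipy 1.17.1). The members and lists were chosen with earlier results of these data known. Values are given in every library for called members and the 12 of highest mean. The planned 3 miRNAs most like the summed families are not named, because 7 tied for second place.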

Additional observations from a re-analysis of the deposited data

How the results depend on the processing

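Of 195 alternatives over 20 results, 159 were classed as the same. For a single member this meant the same direction and call. For counts, shares and sums it meant a move within a set tolerance, so the number of calls could still change. The number of called members was 2, and 1 with a mean count of at least 10, because the other fell under it, 1 with a replicate block, and 1 to 3 when libraries were left out. The number of called miRNAs was 327, with 222 under the block and 362 by DESeq2. Same-numbered libraries had correlations of deviations of 0.172, 0.355 and -0.349 over 814 miRNAs. Pairs of unlike number gave -0.119 to -0.0954 for lamb replicate 1, -0.603 to 0.39 for replicate 2 and -0.291 to 0.519 for replicate 3. With 3 libraries per stage, these values cannot decide whether equal numbers pair the samples. With the block bta-miR-2285bd_L+2R+1_1ss10GC had an adjusted p of 0.1726 and bta-miR-2285at_L+1_1ss17TC changed sign to -0.2634. DESeq2 changed the sign of bta-mir-2284aa-3-p3_1 and bta-mir-2284aa-3-p3_2 to 0.0824 and of bta-mir-2284aa-3-p3_1ss1AG to 0.0528. The authors' factors gave 0.1419 and 0.1064 for these, and library totals gave -0.1517 for bta-miR-2284x_R+1 and -0.1209 for bta-miR-2285at_L+1_1ss17TC. None of these 5 passed a threshold. Without single libraries the ranges were -0.0568 to 0.437 for bta-miR-2284x_R+1, -0.2636 to 0.781 for bta-miR-2285at_L+1_1ss17TC, -0.6295 to 0.2547 for bta-mir-2284aa-3-p3_1ss1AG, -0.8576 to 0.5655 for the other miR-2284aa names and -0.7459 to 0.246 for bta-mir-2285o-3-p5_1ss12TC. The difference in summed miR-2284, 4.51 CPM, was -2.78 without its highest member, -12.4 with library totals, 21.2 with the authors' factors and -4.63 to 17.6 without single libraries. That of miR-2285, -32.1, was -7.80 without its highest member, -40.5 with library totals, -25.1 with the authors' factors and -37.6 to -28.0 without single libraries. The difference in members detected, -2.67, was -6.33 to 0.167 without single libraries. The cause was not tested. Scalings by totals or authors' factors, merged rows and leaving out libraries for detection were chosen after seeing the data. Few reads per member limit all but the 3 most abundant.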

Other observations

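Predicted miRNAs outside the families resembled members. Of the names with no registry entry, 5 lay within 2 base changes of a member's read, a search chosen after the values were seen. The read PC-3p-18765_217 (aAAAAACCtagtgaactttttg) differs from bta-miR-2285bm_1ss14GA by G9T, counted from the member's first base, and shares its seed. It had 37.5, 27 and 40.5 reads in lambs, against 152.5, 78 and 83 in fetuses, and was lower in lambs (log2 fold change -0.89 ± 0.29 SE, edgeR adjusted p = 0.0481). This lay just under the threshold, and no alternatives were examined for this read. Over all 814 tested miRNAs, 27% were lower in lambs. PC-3p-41844_71, which differs from bta-miR-2285az_1ss5TA by G22T, had 3, 0 and 4.5 reads in lambs, against 12.5, 7.5 and 8 in fetuses, and did not pass the test (log2 fold change -1.39 ± 0.90 SE, edgeR adjusted p = 0.25). PC-3p-25440_150 (aAAACACGaacaaacttttcgg) is bta-miR-2285bf_1ss20TC with a base added at the 3′ end. It had 22, 19 and 26 reads in lambs and 33, 24 and 26 in fetuses, while that member had 9.5 reads in all (log2 fold change 0.35 ± 0.34 SE, edgeR adjusted p = 0.444). PC-3p-47129_57 had 28.5 reads and PC-3p-88048_8 had 8, and both were under the count minimum.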
